A study of Mus musculus with 11 samples.

Results

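The genes described here are 10 components of the tight junction, taken by gene symbol from the 29809 named genes of a single-cell RNA sequencing survey of mouse colonic mucosa. They comprise 8 claudins (Cldn2, Cldn15, Cldn3, Cldn4, Cldn7, Cldn8, Cldn23 and Cldn5), occludin (Ocln) and the scaffold ZO-1 (Tjp1), and all 10 were found in the count matrix. The survey held 55603 cells in 11 libraries, and every group was 1 library made from the pooled colons of 3 to 8 mice. In 9 of them the mice were wild type, aged about 2 months, and had 3% DSS (dextran sulfate sodium, a polymer that injures the colon epithelium) for 6 days, and the day counted from the start of DSS was 6, 9, 12, 16, 19 or 23 in 6 libraries and 7, 11 or 18 in the other 3. Another library came from Il10-/- mice of about 10 months, which lack interleukin 10 throughout the body and develop colitis without DSS. The last was from uninjured wild-type mice of about 2 months. The background strain is not given in the sources used here. For Il10-/- mice genotype, age and colitis cannot be told apart. The libraries of days 7, 11 and 18 form batch C, with fresh tissue of 3 mice each in the authors' cell table. The other 8 libraries are listed there as frozen, with 8 mice each, and are called frozen libraries below.

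Tight junctions close the gap between neighbouring epithelial or endothelial cells. Claudins are the membrane proteins that form the strands of the junction, and the mix of claudins in a cell sets whether its junctions let ions and water through or hold them back. Claudin-2 and claudin-15 form channels for small cations and, for claudin-2, water. Claudins 3, 4, 7 and 8 are mostly described as sealing members, claudin-23 is a less studied member of the surface epithelium, and claudin-5 is the main claudin of endothelium. Occludin is a further membrane protein of the junction, and ZO-1 ties claudins and occludin to the actin skeleton. In human colitis, more claudin-2 and less of several sealing claudins are often described.

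The counts were of unique molecular identifiers (UMIs), each standing for 1 captured RNA molecule read at its 3′ end. Libraries held 7922350 to 87012379 UMIs, and the median cell had 4579 to 7809.5 UMIs in batch C against 2116.5 to 3714 in the frozen libraries. Some cell barcodes, 611 in all, occurred in more than 1 library. Levels are given as CPM, the usual counts-per-total unit, over all UMIs of a cell type in a library, with exact Poisson 95% intervals that cover counting error only. Cell types are the authors' own labels. Columnar cells join the crypt types (Crypt-1 and Crypt-2), the surface colonocyte types (Car4, Car4/Ly6g and Dpep1/Guca2a) and goblet cells, and 298 (day 6) to 4356 (day 18) of them were in each library. The types carried their defining markers: the 9 markers of columnar epithelium summed to 16143 to 22935 CPM in columnar cells of the DSS libraries, against 19132 in the uninjured library, and the 7 markers of blood endothelium to 5404 to 7696 CPM in blood endothelial cells, against 6579. Markers of other cells were read in them too. The 5 neutrophil markers summed to 312 to 11999 CPM in columnar cells of the DSS libraries, against 3.47 in the uninjured library. In blood endothelial cells they summed to 242 to 27981 CPM in the DSS libraries and 20484 in the Il10-/- library, against 0 in the uninjured library. In such sums, fewer cells of a subtype and less RNA per cell cannot be told apart.

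Positions are those of the mm10 genome. Cldn3 (5:134986214-134987472, plus strand) and Cldn4 (5:134945119-134946934, minus strand) are neighbours, 39279 bases apart, and Cldn15 (5:136966616-136975858, plus strand) is on the same chromosome. Cldn2 is at X:139800828-139811386 (plus strand), Cldn7 at 11:69964779-69967885 (plus strand), Cldn8 at 16:88560828-88563183 (minus strand), Cldn5 at 16:18776847-18778262 (plus strand), Cldn23 at 8:35824712-35826559 (minus strand), Ocln at 13:100496507-100552718 (minus strand) and Tjp1 at 7:65296165-65527781 (minus strand). An antisense gene, Wbscr25, overlaps Cldn3. Tjp1 is overlapped by Gm44794 and Gm44792 on its own strand and by the pseudogene Gm44795 on the other strand. How reads in the shared bases were assigned was not tested. RefSeq promoter windows (GRCm38.p6, 250 bases before to 50 after the start) were matched for 8 members, and a RefSeq start can differ from the gene start given above. Those of the pair read in crypt and goblet cells, Cldn2 (chrX:139800558-139800857, plus strand) and Cldn15 (chr5:136967619-136967918, plus strand), and of the neighbours Cldn3 (chr5:134985964-134986263, plus strand) and Cldn4 (chr5:134946885-134947184, minus strand) are shown here because the results below turn on these genes. Capitals mark the TATAAA motif.
Cldn2: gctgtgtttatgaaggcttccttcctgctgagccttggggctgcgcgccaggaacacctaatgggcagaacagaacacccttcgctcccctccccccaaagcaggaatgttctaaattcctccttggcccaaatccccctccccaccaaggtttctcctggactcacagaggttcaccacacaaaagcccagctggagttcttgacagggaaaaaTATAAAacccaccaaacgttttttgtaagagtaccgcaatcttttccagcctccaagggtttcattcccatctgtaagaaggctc
Cldn15: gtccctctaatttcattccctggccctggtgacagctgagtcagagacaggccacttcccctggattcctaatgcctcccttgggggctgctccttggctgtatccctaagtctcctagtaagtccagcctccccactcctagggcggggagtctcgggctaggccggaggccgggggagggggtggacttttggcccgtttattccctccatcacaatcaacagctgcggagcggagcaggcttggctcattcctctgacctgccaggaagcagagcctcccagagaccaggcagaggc
Cldn3: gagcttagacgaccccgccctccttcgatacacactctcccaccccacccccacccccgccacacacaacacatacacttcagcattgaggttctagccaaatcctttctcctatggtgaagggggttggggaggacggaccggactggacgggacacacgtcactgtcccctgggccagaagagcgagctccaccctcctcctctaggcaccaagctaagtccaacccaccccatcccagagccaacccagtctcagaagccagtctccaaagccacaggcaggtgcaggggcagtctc
Cldn4: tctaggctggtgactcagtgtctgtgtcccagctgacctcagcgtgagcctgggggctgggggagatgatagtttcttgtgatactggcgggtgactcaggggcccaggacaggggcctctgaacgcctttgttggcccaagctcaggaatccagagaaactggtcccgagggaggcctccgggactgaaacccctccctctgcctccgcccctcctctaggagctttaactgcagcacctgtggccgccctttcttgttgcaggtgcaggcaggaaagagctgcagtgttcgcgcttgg
The windows were searched on both strands for 4 motifs. The motif of the box bound early in transcription was TATAAA. The core of sites for CDX factors of the intestine was TTTATNG. The core of sites for GATA factors was AGATAA. The STAT6 motif was TTC followed, after any 4 bases, by GAA. Of these 4, the Cldn2 window held TATAAA 35 bases before the start, and the windows of Cldn15, Cldn3 and Cldn4 held none. TATAAA was found in 13.6% of all 32851 promoter windows, TTTATNG in 10.9%, AGATAA in 11.2% and the STAT6 motif in 6.95%. Both Ocln windows held the STAT6 motif. The G and C content was 51.3% with 5 CpG steps for Cldn2, 61.0% with 7 for Cldn15, 60.7% with 9 for Cldn3 and 61.0% with 9 for Cldn4, against a median of 52.7% with 7 over all windows.

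The pore-forming pair Cldn2 and Cldn15 was read in crypt and goblet cells, among other types, and was close to 0 in surface colonocytes. Over libraries with at least 20 cells of the type, Cldn2 averaged 87.0 ± 31.2 CPM in Crypt-1 cells (SD, n = 9 libraries), 63.2 ± 38.7 in goblet cells (n = 8) and 9.08 ± 5.03 in Crypt-2 cells (n = 11). Enteroendocrine cells had 3.44 CPM on day 7 and 126 CPM on day 18, the 2 libraries with enough of them. The spreads of Crypt-1 and goblet cells overlapped, while Crypt-1 lay above Crypt-2 in 9 of 9 libraries. Cldn15 averaged 90.6 ± 62.0 CPM in goblet cells (n = 8), 46.8 ± 32.0 in Crypt-1 (n = 9), 34.4 ± 18.0 in the blood endothelial cells without Selp and Sele (n = 10), 32.5 ± 32.7 in tuft cells (n = 2) and 28.3 ± 17.8 in Crypt-2 (n = 11). These neighbours in the order overlapped, but goblet cells lay above Crypt-2 in 8 of 8 libraries. With both crypt types joined, crypt cells were above surface colonocytes in 11 of 11 libraries for Cldn2 (34.1 ± 23.8 against 0.846 ± 1.40 CPM) and for Cldn15 (34.0 ± 18.4 against 1.08 ± 0.943 CPM). Among 12264 genes with enough counts, 41.2% were higher in crypt cells in every library. Since the types were made by clustering these same cells, all such comparisons between types are descriptions with no test.

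**Figure D1:**
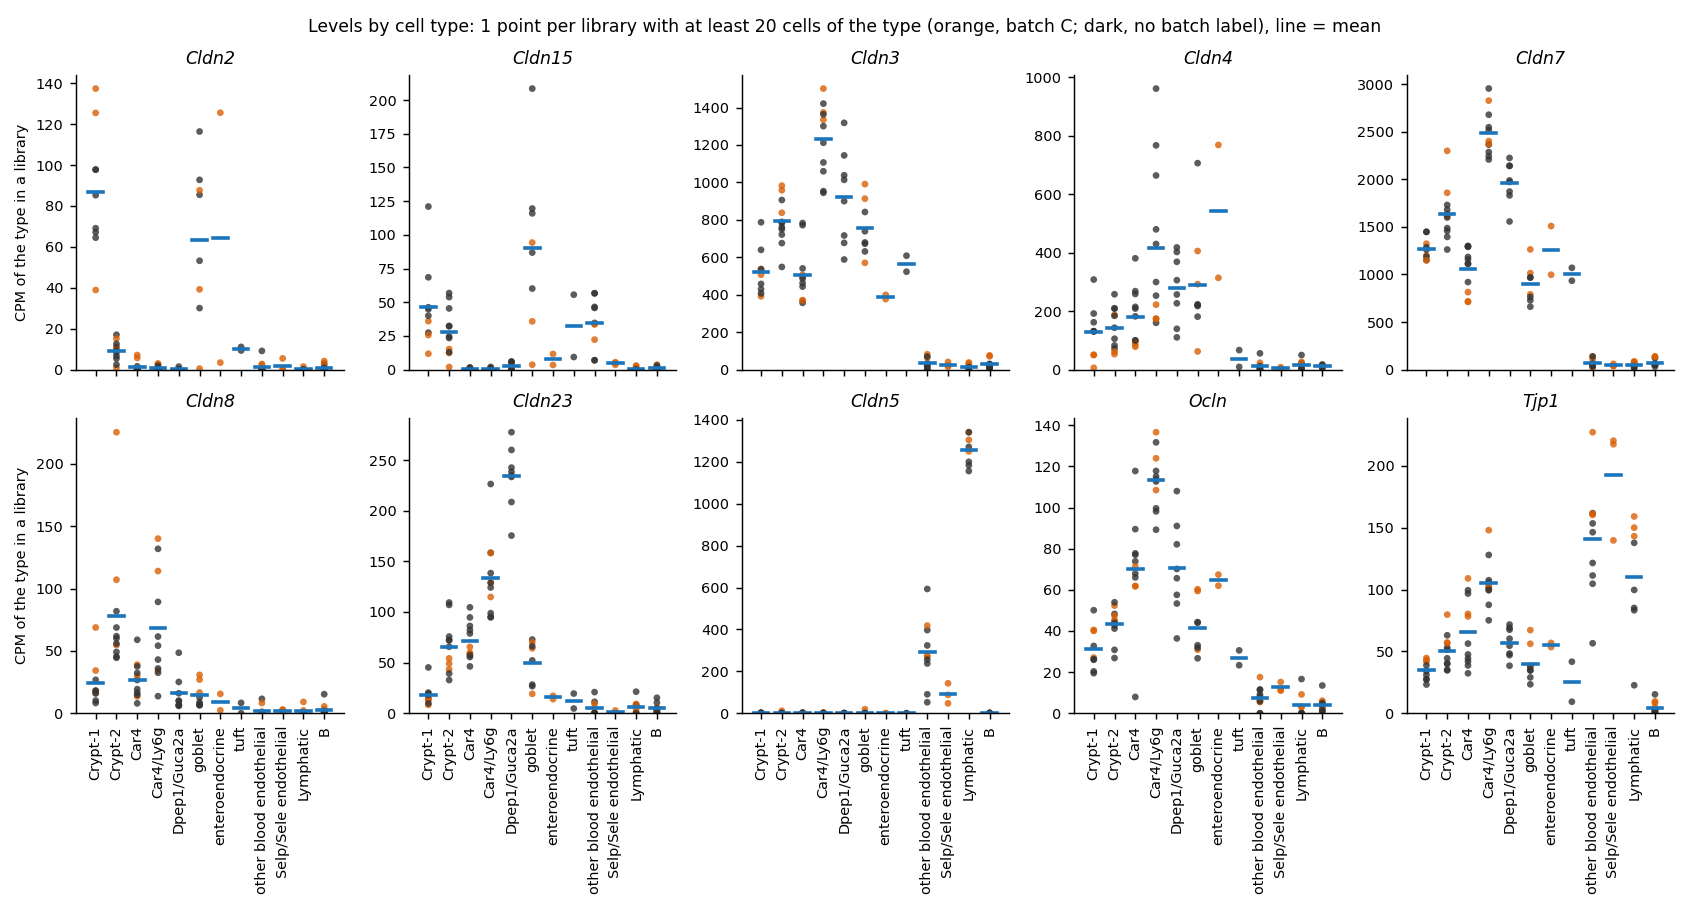
CPM of each member (1 panel each, separate linear axes) in 12 cell types. Each point is a library with at least 20 cells of the type, orange for batch C (fresh) and dark for frozen libraries, and the blue line is the mean. Cldn2 stands highest in Crypt-1 cells (mean 87.0 CPM), Cldn23 in Dpep1/Guca2a colonocytes (234 CPM) and Cldn5 in lymphatic endothelium (1256 CPM).

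The share of cells with at least 1 UMI was compared at equal depth. After each cell was thinned to 1000 UMIs, Cldn2 was seen in 11.6% of 1108 Crypt-1 cells (Clopper-Pearson 95% interval 9.81 to 13.7%), in 2.74% of 1388 goblet cells and in 0.870% of 2183 Crypt-2 cells. B cells, which should lack it, gave 0.106% of 3793 cells. Unthinned, the share was 72.2% in Crypt-1 cells, whose median was 24100 UMIs before thinning. Cldn15 was seen in 4.15% of Crypt-1 cells (3.06 to 5.50%), 3.53% of 849 cells of the blood endothelial type without Selp and Sele (2.40 to 5.01%), 2.95% of goblet cells and 0.132% of B cells at the same depth. Cells under 1000 UMIs were left out, which kept 1108 of 1113 Crypt-1 cells and 3793 of 5185 B cells.

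Of the sealing claudins, Cldn3 and Cldn7 had their highest levels in 2 of the 3 surface colonocyte types, while the mean of the Car4 type was below those of both crypt types. Cldn3 was highest in Car4/Ly6g colonocytes (1234 ± 192 CPM, n = 11), then Dpep1/Guca2a colonocytes (924 ± 251, n = 8), Crypt-2 (792 ± 126, n = 11), goblet cells (755 ± 147, n = 8), tuft cells (566 ± 60.5, n = 2), Crypt-1 (521 ± 126, n = 9) and Car4 colonocytes (508 ± 146, n = 11), of which the last 3 overlapped. Cldn7 followed with 2491 ± 243 CPM in Car4/Ly6g, 1966 ± 215 in Dpep1/Guca2a, 1638 ± 275 in Crypt-2, 1272 ± 116 in Crypt-1 and 1056 ± 227 in Car4 colonocytes. Cldn4 was read at 541 ± 321 CPM in enteroendocrine cells, the hormone-making cells, in 2 libraries, at 417 ± 273 in Car4/Ly6g (n = 11) and at 142 ± 70.8 in Crypt-2 (n = 11). Both enteroendocrine libraries were of batch C, with 768 CPM on day 7 and 314 on day 18, against 222 and 175 CPM in Car4/Ly6g cells of the same libraries. Crypt cells were below surface colonocytes in 11 of 11 libraries for 6 members. These were Cldn3 (ratio of means 0.669), Cldn4 (0.409), Cldn7 (0.715), Cldn23 (0.356), Ocln (0.418) and Tjp1 (0.514). Of all genes with enough counts, 7.84% were below in every library.

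Within the surface types, the members separated further. Car4/Ly6g cells lay above Car4 cells in 11 of 11 libraries for Cldn3, Cldn4, Cldn7, Cldn8 and Tjp1, with ratios of means of 2.43, 2.32, 2.36, 2.53 and 1.60, and 26.4% of 9381 genes did so. Only 0.213% lay below in all 11, so nearly all genes with a steady order were lower in Car4 cells. The order is thus not particular to the members. Cldn23 was above Car4 cells in 10 of 11 libraries (ratio 1.86), but was highest in Dpep1/Guca2a cells. These averaged 234 ± 31.0 CPM, above Car4/Ly6g cells in 8 of 8 libraries (133 ± 44.0 CPM in the same libraries), where 5.11% of 6888 genes did so. Cldn7, Cldn8, Ocln and Tjp1 were lower in Dpep1/Guca2a than in Car4/Ly6g cells in all 8 libraries, against 14.6% of genes. Cldn8 was highest in 1 crypt and 1 surface type, at 77.7 ± 52.2 CPM in Crypt-2 and 68.2 ± 43.7 in Car4/Ly6g. Next came Car4 with 26.9 ± 14.7, Crypt-1 with 24.1 ± 18.6 and Dpep1/Guca2a with 16.1 ± 14.6. Crypt-1 was below Crypt-2 in 9 of 9 libraries for Cldn3, Cldn7, Cldn8 (ratio 0.299) and Cldn23 (0.264), as were 11.1% of 11876 genes, while 22.3% were above in all 9 as Cldn2 was (ratio 9.55).

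Goblet cells, which secrete mucus, had more of the pore-forming pair than Crypt-2 cells and less of some sealing members. They were above Crypt-2 cells in 8 of 8 libraries for Cldn15 (ratio of means 3.25; 6.87% of 11294 genes) and in 7 of 8 for Cldn2. The exception was day 7, where Cldn2 was at 0.521 CPM in 147 goblet cells, against 0.810 CPM in Crypt-2 cells. Cldn7, Cldn8 and Tjp1 were below Crypt-2 in all 8 libraries, as were 15.4% of genes, while Cldn3 was above in 4 of 8 and Cldn4 in 6 of 8. Occludin was highest in Car4/Ly6g colonocytes (113 ± 14.3 CPM), and its next types, Dpep1/Guca2a (70.5 ± 22.7) and Car4 (70.3 ± 26.1), did not differ beyond their spread.

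Cldn5 was an endothelial gene in these cells, and its highest level was in lymphatic endothelium. It averaged 1256 ± 71.3 CPM in lymphatic endothelial cells (n = 8) and 291 ± 157 CPM in the blood endothelial cells without Selp and Sele (n = 10). The Selp/Sele type, which carries the adhesion molecules of venules, had 92.6 ± 48.0 CPM (n = 3, all of batch C). Every other type with enough cells had a mean at or under 2.48 CPM. The highest single values among them were 19.3 CPM in goblet cells on day 7, 12.2 CPM in neutrophils on day 19 and 11.8 CPM in Crypt-2 cells on day 7. Lymphatic cells were above all blood endothelial cells joined in 8 of 8 libraries (1256 ± 71.3 against 299 ± 121 CPM; 6.68% of 9530 genes). In the same 8 libraries Cldn15 was lower in lymphatic than in blood endothelium (0.775 ± 1.22 against 27.8 ± 12.8 CPM; 6.86% of genes), so the claudins of the 2 kinds of vessel differed in both directions. After thinning to 1000 UMIs, Cldn5 was seen in 63.6% of 748 lymphatic cells (60.1 to 67.1%), in 15.3% of 849 other blood endothelial cells and in 0.0264% of B cells. Selp/Sele cells were below the other blood endothelial cells in 3 of 3 libraries, all of batch C, for Cldn5 (ratio 0.288) and Cldn15 (0.157), as were 22.1% of 10342 genes. Their thinned share for Cldn5, 15.7%, was not lower, so no order is read from it. The order of Cldn5 was also reversed on day 23, with 9 Selp/Sele cells. There, the other blood endothelial cells had 52.4 CPM, while all blood endothelial cells joined had at least 160 CPM in every DSS library. Tjp1 was shared by both tissues, with 193 ± 45.7 CPM in Selp/Sele cells, 140 ± 45.4 in other blood endothelium, 110 ± 46.2 in lymphatic endothelium and 105 ± 19.1 in Car4/Ly6g colonocytes. Each of these spreads overlapped that of the next type in the order. Mean ± SD of Selp/Sele cells and of Car4/Ly6g colonocytes did not overlap. Their single libraries did, with 140 CPM at the lowest in Selp/Sele cells and 148 CPM at the highest in Car4/Ly6g colonocytes.

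Across the DSS course, columnar Cldn2 stood out for its spread between libraries. The 9 DSS libraries ranged between 2.43 CPM on day 7 and 67.9 CPM on day 11 with a median of 21.4, the Il10-/- library was at 10.0 and the uninjured library was at 13.2 CPM. The lowest and the highest value both came from batch C, whose day 18 library was at 49.7, while the 6 frozen DSS libraries lay between 13.8 and 27.0. Cldn15 ranged between 1.61 CPM on day 7 and 54.7 on day 23, with a median of 26.5, against 12.8 in the Il10-/- and 13.9 in the uninjured library. Crypt-1 cells made up 10.8, 51.0 and 37.7% of crypt cells in the libraries of days 7, 11 and 18, while the uninjured share was 8.65%. Within Crypt-1 cells alone, Cldn2 was 38.9 CPM on day 7, 125 on day 11 and 137 on day 18, and 64.5 to 97.8 CPM in the 5 frozen DSS libraries with 20 or more such cells. So the day 7 library was lowest and those of days 11 and 18 highest within 1 type as well, and the uninjured library, with 16 Crypt-1 cells, gave 67.2 CPM (36.7 to 113).

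**Figure D2:**
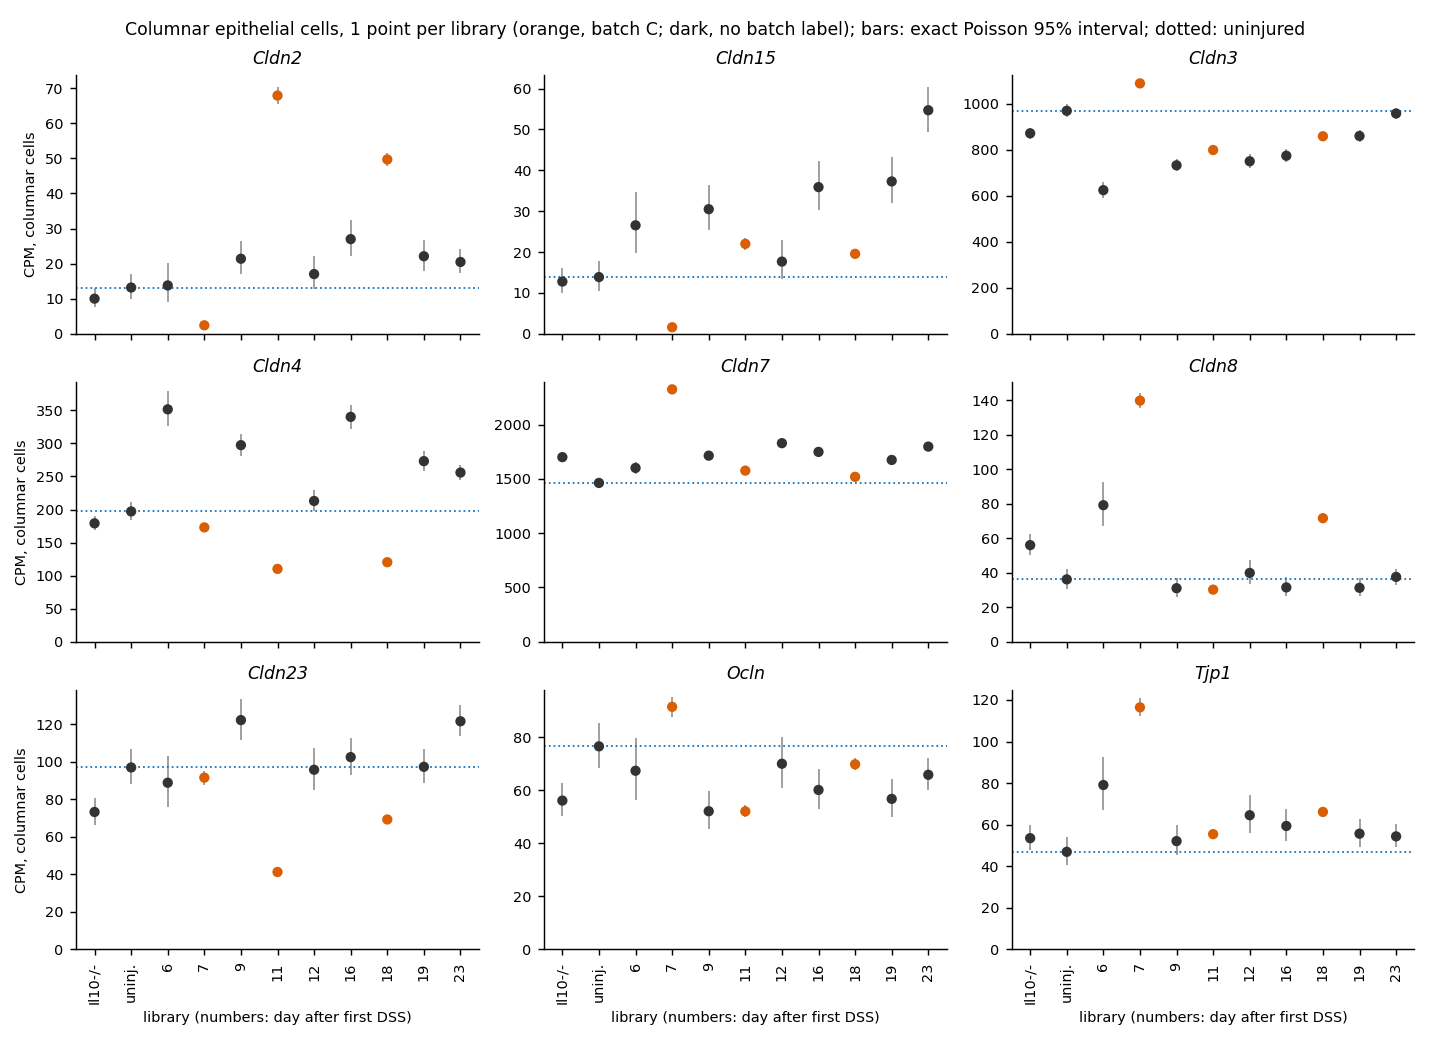
CPM in columnar cells for 9 members (linear axes from 0) in each library, with Il10-/- and uninjured at the left and the DSS days after them. Orange points are batch C, dark points frozen libraries, bars exact Poisson 95% intervals and the dotted line the uninjured level. Cldn2 is lowest on day 7 (2.43 CPM) and highest on day 11 (67.9 CPM), and the 3 batch C points of Cldn4 lie under the uninjured level of 197 CPM.

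The day trend was tested in the 9 DSS libraries with edgeR's quasi-likelihood test, with batch as a term, and slopes are in log2 units per 10 days ± SE. In columnar cells, 25 of 10914 genes passed an adjusted p of 0.05 (0.229%; 1454 at an unadjusted p under 0.05; 353 with DESeq2), and 0 of the 9 members tested did, none of them at an unadjusted p under 0.05 or with DESeq2 either. Cldn5 did not pass the filter on low counts. The largest slopes were 0.85 ± 0.43 for Cldn15 (adjusted p = 0.427), -0.67 ± 0.36 for Cldn8 (adjusted p = 0.458), 0.62 ± 0.61 for Cldn2 (adjusted p = 0.709) and -0.44 ± 0.23 for Tjp1 (adjusted p = 0.440). Leaving out 1 library at a time moved the Cldn2 slope between 0.08 and 1.09. For Cldn8, the early libraries were highest, with 79.1 CPM on day 6 and 140 on day 7, but day 18 was at 71.6 and the others between 30.1 and 39.8. The members' median slope was -0.18 with 3 of 9 positive, beside 0.01 and 51.1% positive over all genes.

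Split by position, the picture held no called member either. In crypt cells, 0 of 10009 genes passed with edgeR (0%), against 1429 at an unadjusted p under 0.05 and 293 with DESeq2. Here 2 of 9 members had an unadjusted p under 0.05, Cldn15 with 0.81 ± 0.34 (adjusted p = 0.328) and Tjp1 with -0.38 ± 0.14 (adjusted p = 0.258). Cldn15 in crypt cells was 3.81, 20.5 and 26.1 CPM on days 7, 11 and 18 of batch C, against 29.0 CPM at the lowest (day 12), 49.6 at the median and 61.7 at the highest (day 23) in the 6 frozen DSS libraries, without overlap. With no filter on low counts, 958 genes and 4 members passed in crypt cells, against 0 of 10009 genes with the filter. The members were Cldn5, which the filter had left out, Cldn2 (0.69, adjusted p = 0.00608), Cldn15 (0.82, adjusted p = 5.99e-05) and Cldn8 (-0.62, adjusted p = 0.00148). With the filter, the edgeR slopes were close to these but not called. They were 0.68 ± 0.54 for Cldn2 (adjusted p = 0.623) and -0.64 ± 0.43 for Cldn8 (adjusted p = 0.553), with Cldn15 as above. In surface colonocytes, 91 of 8074 genes passed (1.13%; 1328 at an unadjusted p under 0.05; 336 with DESeq2) and 0 of 7 members, where Cldn2, Cldn15 and Cldn5 did not pass the filter on low counts, with Cldn4 at -0.36 ± 0.19 (adjusted p = 0.364) and Tjp1 at -0.24 ± 0.13 (adjusted p = 0.365). In the test of the difference between the slopes of crypt cells and surface colonocytes, 6 of 10641 genes passed (0.0564%) and 0 of 9 members. In all, 869 genes, Cldn15 among them (1.12 ± 0.51, adjusted p = 0.597), had an unadjusted p under 0.05, and DESeq2 called 24. Goblet cells could not be fitted, since 6 DSS libraries held 20 or more of them and 7 were needed.

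**Figure D3:**
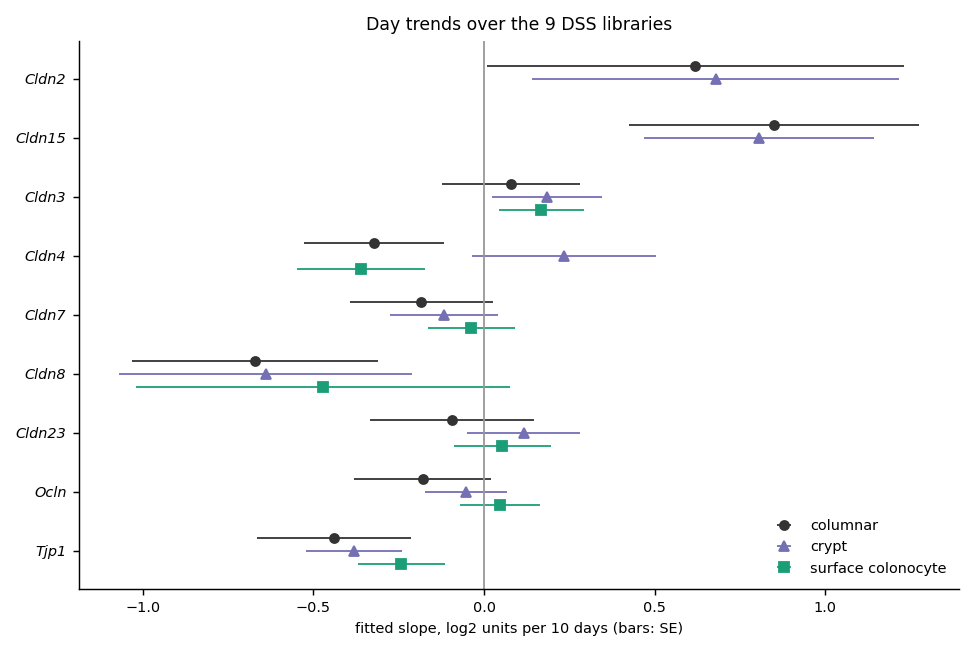
Fitted slopes over the 9 DSS libraries for 9 members, in log2 units per 10 days with bars of 1 SE, in columnar cells (dark circles), crypt cells (purple triangles) and surface colonocytes (green squares). Cldn15 (0.85 in columnar cells) and Cldn2 lie right of 0, Cldn8 (-0.67) and Tjp1 left of it, and no slope passed the test.

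Cldn4 differed between the batches. In columnar cells it was 173, 110 and 120 CPM on days 7, 11 and 18 of batch C, against 213 to 352 CPM (median 285) in the 6 frozen DSS libraries, 179 in the Il10-/- and 197 in the uninjured library. The 2 batches did not overlap, and the edgeR term for batch C was -1.31 ± 0.26 on the log2 scale (adjusted p = 0.0114). It was the only member called of 9, where 10.4% of 10914 genes were called, 5.41% higher and 5.01% lower, and without day 18 it was -1.26 (adjusted p = 0.0986). The same order held in Car4/Ly6g cells, with 222, 173 and 175 CPM in batch C against 253 to 961 in the frozen DSS libraries and 160 in the uninjured library, and in Crypt-1 cells, with 6.25, 51.0 and 49.7 CPM against 130 to 308. Several values moved with it. The Dpep1/Guca2a type held 0, 1 and 0 cells in batch C, against 24 to 143 in each frozen library of the DSS course. Guca2a, which names this type, was lower in batch C (-2.94 ± 0.31, adjusted p = 0.000226), the only 1 of 6 surface colonocyte markers called. Of the 6 crypt markers 1 was higher, Mki67 (1.94 ± 0.38, adjusted p = 0.0113), and of 4 tested genes of distal colon position 2 were higher, Hoxd13 (0.87 ± 0.18, adjusted p = 0.0131) and Hoxb13 (0.64 ± 0.17, adjusted p = 0.0385). Cdx2, a transcription factor of intestinal identity, was lower (-2.54 ± 0.19, adjusted p = 3.17e-05). It was 1 of 2 genes called lower among 31 tested partners and regulators, with 1 called higher, a share near the 10.4% of all genes. Markers of other cell types also differed in these cells: 3 of 5 neutrophil markers were called higher in batch C (5 of 5 positive), and 2 of 4 macrophage markers tested were called lower (median -1.92). Batch C also differed in storage, depth and number of mice, which cannot be told apart, and the part of colon position, cell mix and other cells' RNA in the result was not tested.

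The batch term for other members turned on the day 7 library. Without it, 3976 genes were called, against 1137 of 10914 (10.4%) with all 9 libraries, so the rise in calls was not particular to the members. Of the members, 5 passed: Cldn4, Cldn2 (1.20, adjusted p = 0.000264), Cldn15 (-0.97, adjusted p = 0.00557), Cldn7 (-0.47, adjusted p = 0.0326) and Cldn23 (-1.25, adjusted p = 0.000251). With all 9 libraries these were 0.74 ± 0.60 for Cldn2 (adjusted p = 0.463), -1.38 ± 0.50 for Cldn15 (adjusted p = 0.106, and 0.0295 with DESeq2), -0.11 ± 0.25 for Cldn7 (adjusted p = 0.826) and -0.77 ± 0.30 for Cldn23 (adjusted p = 0.130). Without day 11 the Cldn2 term was -0.14 and Cldn8 passed (1.13, adjusted p = 0.0405). Over the fits with 1 DSS library left out, 324 to 3976 genes were called. Columnar Cldn8 (140 CPM) and Cldn7 (2324 CPM) were highest on day 7 among the 11 libraries, and Cldn2 and Cldn15 were lowest. On that day Car4/Ly6g cells were 49.3% of columnar cells, and Crypt-1 cells 1.28%. Within Crypt-2 cells alone, day 7 again had the highest Cldn8 (225 CPM, against 44.5 to 107 in the other 8 DSS libraries and 49.2 in the uninjured one) and the lowest Cldn15 (1.95 CPM, against 12.4 to 56.8 and 24.6).

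**Figure D4:**
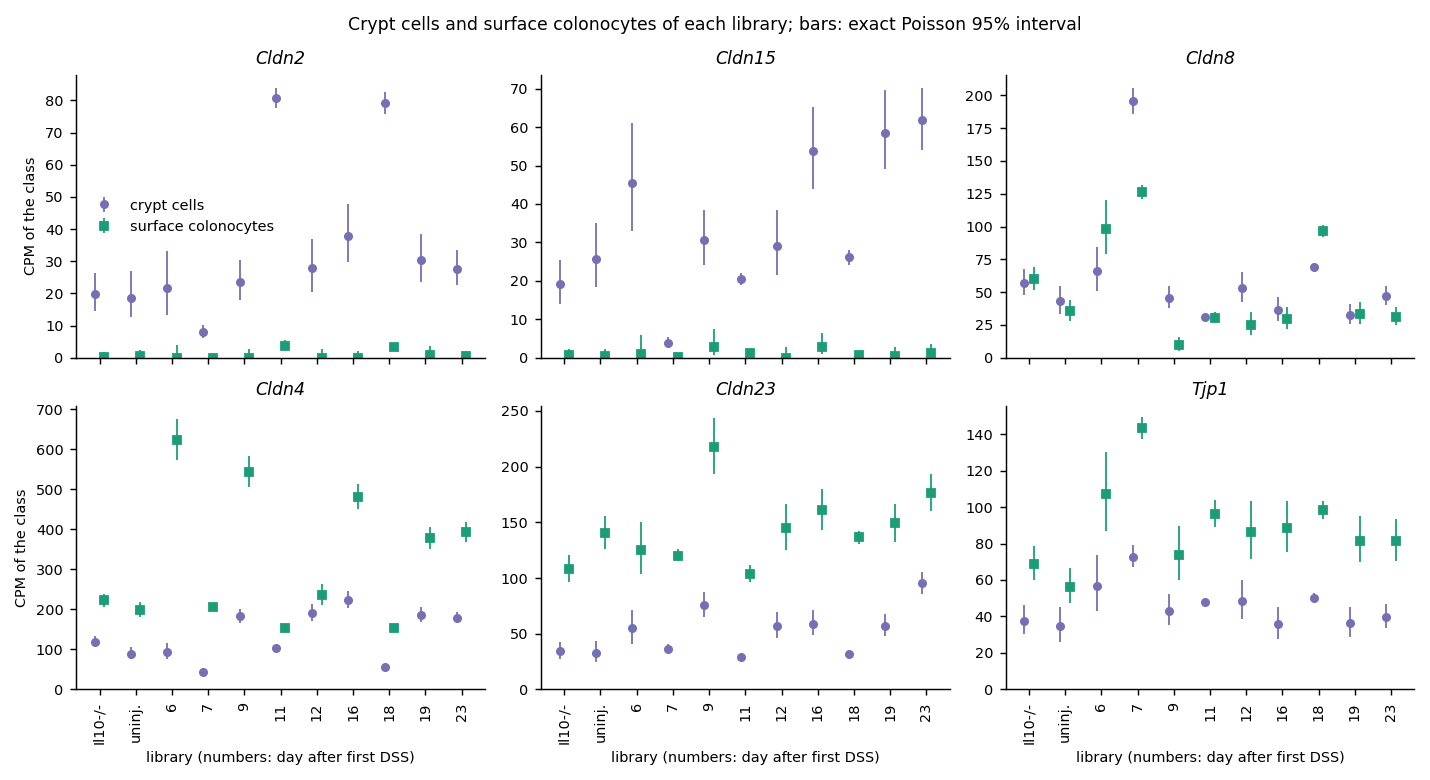
CPM of 6 members in crypt cells (purple circles) and surface colonocytes (green squares) of each library, on linear axes from 0, with exact Poisson 95% intervals. Cldn2 and Cldn15 are near 0 in colonocytes in every library, Cldn4 and Tjp1 are higher in colonocytes in every library, and crypt Cldn8 is highest on day 7 (196 CPM).

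Against the uninjured library, no test was possible with 1 library a group. In columnar cells, 2 members lay above it in all 9 DSS libraries (26.9% of 9443 genes did) and 0 lay below it in all 9 (7.8% of genes). Cldn7 was 1519 to 2324 CPM (median 1714), against 1462 in the uninjured library, and Tjp1 was 52.1 to 116 CPM (median 59.4), against 47.0. Both depended on the scale: with mitochondrial genes left out of the total, or with TMM-scaled CPM, 0 members lay above in all 9, and the median log2 ratio of Cldn7 was -0.01 with mitochondrial genes left out. Mitochondrial genes took 15.2 to 31.6% of the median columnar cell's UMIs in the DSS libraries, against 34.7% in the uninjured library. In the 6 frozen DSS libraries alone, Cldn2, Cldn15, Cldn4, Cldn7 and Tjp1 were above in all 6 (37.7% of 8963 genes) and Cldn3 and Ocln below in all 6 (17% of genes). Cldn3 was 625 to 958 CPM there (median 762), against 970, and Ocln 52.1 to 70.0 CPM (median 63.0), against 76.6. These too are CPM over all UMIs. With mitochondrial genes left out, the median log2 ratio over all 9 DSS libraries went from 0.38 to 0.08 for Cldn4. It went from 0.34 to 0.14 for Tjp1, from 0.70 to 0.35 for Cldn2 and from 0.94 to 0.78 for Cldn15. For Cldn3 it went from -0.28 to -0.52, and for Ocln from -0.22 to -0.51. Within Car4/Ly6g cells, Cldn4 was above the uninjured level of 160 CPM in all 9 DSS libraries (173 to 961, median 429), as were Cldn23 (98.8 to 226 CPM, against 94.7) and Tjp1 (99.5 to 148 CPM, against 75.1), where 17.8% of 4900 genes were. Whether these hold on another scale was not tested.

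Single days stood further from the uninjured library in columnar cells. On day 7, Cldn8 was 140 against 36.1 CPM, a ratio of 3.87 (3.30 to 4.57), and Tjp1 was 116 against 47.0 CPM, a ratio of 2.48 (2.15 to 2.87). Cldn2 and Cldn15 had ratios of 0.184 (0.126 to 0.269) and 0.116 (0.0758 to 0.175) on the same day, on which 16.1% of genes were at least 2-fold higher and 8.91% at least 2-fold lower. On day 11, Cldn2 had a ratio of 5.15 (3.96 to 6.81) and Cldn23 of 0.426, where 30.6% of genes were at least 2-fold higher and 5.48% lower. On day 23, Cldn15 was 54.7 against 13.9 CPM, a ratio of 3.94 (2.99 to 5.26), where 10.7% of genes were at least 2-fold higher and 2.47% lower. These intervals cover counting error and not the spread between mice.

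The Il10-/- library differed from the uninjured library by less than 2-fold for every member with enough counts in columnar cells, while 8.67% of 9464 genes were at least 2-fold higher and 4.35% at least 2-fold lower. Cldn8 was 56.0 against 36.1 CPM, a ratio of 1.55 (1.28 to 1.89), and Cldn7 was 1700 against 1462 CPM, a ratio of 1.16 (1.13 to 1.20). Ocln was 56.1 against 76.6 CPM, a ratio of 0.733 (0.627 to 0.857), and Cldn23 was 73.2 against 96.9 CPM, a ratio of 0.755 (0.658 to 0.867). Cldn2 was 10.0 against 13.2 CPM with an interval of the ratio, 0.518 to 1.11, that includes 1. Cldn4 differed in opposite directions under its columnar ratio of 0.909: in goblet cells it was 220 against 706 CPM (ratio 0.312, 0.234 to 0.413), and in Car4/Ly6g cells 299 against 160 CPM (1.87, 1.57 to 2.24).

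In blood endothelium, Cldn5 was lower in all 9 DSS libraries than in the uninjured library, as were 13.5% of 1632 genes. The DSS libraries held 160 CPM at the lowest (days 6 and 9), 231 at the median and 374 at the highest (day 12), the Il10-/- library held 467 and the uninjured library 449 CPM (43 cells). The median log2 ratio was -0.96, and it lay between -1.14 and -0.72 under the alternative settings. The mix of endothelial cells also differed: Selp/Sele cells were 13.2 to 33.3% of blood endothelial cells in the DSS libraries, against 9.30% (4 of 43 cells) in the uninjured library. The 4 venous markers summed to 1130 to 4397 CPM in the DSS libraries against 867 CPM. The 5 lymphatic markers summed to 40.3 to 1317 CPM (median 249) in the DSS libraries, against 977 CPM in the uninjured library, and their part in the result was not tested. Within the blood endothelial cells without Selp and Sele, Cldn5 was 52.4 to 418 CPM in the DSS libraries, against 324 CPM in the uninjured library, so the groups overlapped there. That 324 CPM was below the 449 CPM of all uninjured blood endothelial cells, so the 4 uninjured Selp/Sele cells were higher in Cldn5. The part of these 4 cells in the result was not tested. Tjp1 in blood endothelium also overlapped, at 93.4 to 201 CPM in the DSS libraries, against 189 in the uninjured library. Lymphatic Cldn5 in the DSS libraries with at least 20 cells was 1156 to 1341 CPM, against 1271 in the uninjured library and 1183 in the Il10-/- library.

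**Figure D5:**
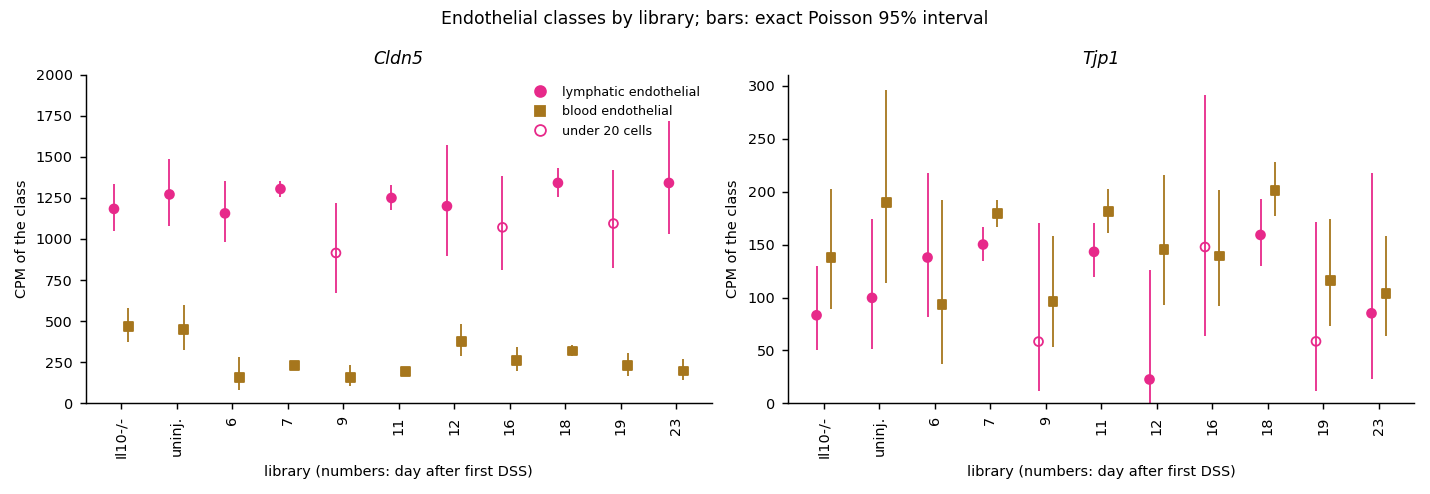
CPM of Cldn5 (left) and Tjp1 (right) in lymphatic (pink circles) and blood (brown squares) endothelial cells of each library, linear axes from 0, with exact Poisson 95% intervals; open circles have under 20 cells. Blood endothelial Cldn5 is below the uninjured value of 449 CPM on every DSS day, and lymphatic Cldn5 is 1156 to 1341 CPM in the DSS libraries with at least 20 such cells.

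Over the DSS days, 46 of 3537 genes passed in blood endothelium (1.3%; 482 at an unadjusted p under 0.05; 107 with DESeq2) and 0 of the 3 members tested. Cldn5 had a slope of 0.20 ± 0.22 (adjusted p = 0.798) and Tjp1 of 0.07 ± 0.18 (adjusted p = 0.959). Cldn7, an epithelial claudin, had 1.58 ± 0.37 (adjusted p = 0.0502), just outside the threshold. It passed with DESeq2 size factors (adjusted p = 0.0478), with mitochondrial genes left out, with no filter on low counts and in cells with at least 1000 UMIs and under 25% mitochondrial counts (adjusted p = 0.00911). It also passed without day 11 (adjusted p = 0.00282), day 19 or day 23, while without day 7 it was 0.98 (adjusted p = 0.169). Its level in blood endothelial cells was 13.3 to 114 CPM, against 1519 to 2324 in columnar cells of the same DSS libraries. Over all libraries with enough cells, Cldn7 averaged 70.8 ± 42.4 CPM in blood endothelial cells without Selp and Sele. Cells that should lack it were alike, with 73.4 ± 38.7 CPM in B cells, 69.1 ± 42.1 in neutrophils and 48.0 ± 26.6 in T cells. All 5 tested markers of columnar epithelium had positive slopes in blood endothelium too, with a median of 1.10, and their sum was 248 to 1597 CPM in the DSS libraries against 1326 in the uninjured library; their part in the result was not tested.

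Other tight junction genes, a list of 45 with 27 tested in columnar cells, held 0 called genes in the columnar day trend, 0 of 26 in crypt cells and 0 of 25 in surface colonocytes. Their median slope in columnar cells was -0.13 with 6 of 27 positive, beside 0.01 and 51.1% over all genes. The 4 with the highest columnar levels were F11r, the adhesion molecule JAM-A (300 ± 75.2 CPM), Vasp, an actin regulator (272 ± 26.2), Cxadr, the coxsackievirus and adenovirus receptor (182 ± 39.5), and Ybx3, a partner of ZO-1 (128 ± 49.1; SD, n = 11 libraries). In blood endothelium, 7 of the list were tested and Jam3, a junctional adhesion molecule, rose with day (1.10 ± 0.27, adjusted p = 0.0440). Its level was 40.0, 39.5, 19.2, 29.5, 30.2, 54.7, 68.9, 116 and 128 CPM over the 9 DSS libraries in day order, with 132 CPM in the Il10-/- and 140 CPM in the uninjured library. It was the only gene called among 22 endothelial junction genes tested. For batch C in columnar cells, 3 of the 27 were called, a share near the 10.4% of all genes called: Cldn14 (2.54 ± 0.61, adjusted p = 0.0278) and the scaffold Magi3 (0.79 ± 0.22, adjusted p = 0.0438) were higher, and the polarity kinase Prkci (-0.72 ± 0.18, adjusted p = 0.0279) was lower. Of partners and regulators, a list of 35 genes, 1 of 30 was called in surface colonocytes, the tumour necrosis factor receptor Tnfrsf1b, which fell by 1.0 ± 0.18 on the log2 scale per 10 days (edgeR, adjusted p = 0.0152). Its level in surface colonocytes was 45.4, 60.6, 57.0, 33.8, 32.9, 35.1, 19.3, 21.6 and 23.6 CPM over the 9 DSS libraries in day order, with 45.8 CPM in the Il10-/- and 2.44 CPM in the uninjured library. The 3 earliest DSS libraries were the highest of the 9. Neutrophil markers moved with it in the same cells: all 5 had negative slopes (median -2.06, all 5 at an unadjusted p under 0.05), and 1, Mmp9, was called (adjusted p = 0.00578). Their sum in surface colonocytes was 576 to 11329 CPM in the DSS libraries and 4498 CPM in the Il10-/- library, against 4.07 CPM in the uninjured library, and their part in the result was not tested. None of 31 was called in columnar or crypt cells by edgeR, where 3 and 6 had an unadjusted p under 0.05.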

How the data were processed

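Cells of mouse colonic mucosa were profiled by droplet 3′ sequencing. The deposited values are UMI counts per gene and cell, made with Cell Ranger 3.0.0 on mm10 per the submitters' processing notes. Cell types are those of the authors' deposited cell table, which also gives batch, storage and number of mice. The matrix held 14 libraries, and 3 matched no sample and were not used. Of 30406 gene rows, 597 had placeholder names (0.517% of counts) and were left out. Doublets were not called again.

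Counts were summed per library and type or class. Levels are CPM with exact Poisson 95% intervals, for types with at least 20 cells in a library. Shares of cells were taken after thinning to 1000 UMIs, with Clopper-Pearson intervals. Day trends over 9 DSS libraries used edgeR 4.0.16 in R 4.3.3 (quasi-likelihood, TMM, filterByExpr, robust, day and batch C as terms, Benjamini-Hochberg adjustment over all genes). DESeq2 1.42.0 was an alternative, with other scalings, filters, cell sets and left-out libraries. The fits were tested on simulated data. With 1 library a group, p-values for the trend measure only the spread of single libraries around it. All 10 members are named. Of the other lists, genes called in a day trend, the 4 tight junction genes with the highest columnar level and the 3 genes most alike each of 6 members are named, and genes called for batch C were chosen after their values were seen. Members and lists were chosen with earlier results of these data known.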

Additional observations from a re-analysis of the deposited data

Results flagged for a closer look

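In columnar cells, Cldn4 in batch C and in the frozen DSS libraries lay on opposite sides of the uninjured library. The medians were 120 CPM in batch C and 285 CPM in the frozen DSS libraries, a log2 difference of -1.25, with 197 CPM in the uninjured library. The difference between the batches was itself tested with edgeR for Cldn4 (-1.31, adjusted p = 0.0114). In surface colonocytes, Cldn3 split the other way, with medians of 1214 CPM in batch C and 965 CPM in the frozen DSS libraries, a log2 difference of 0.33, and 1146 CPM in the uninjured library. That difference was not tested.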

How the results depend on the processing

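No pairing between groups was possible because each group was 1 library and the labels give no replicate numbers shared between groups. Cell types of the same library were paired in the slope difference and in the comparisons between types. The cause of each change below was not tested, and 1 library a group limits every day to a single value.

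The number of genes called for the columnar day trend (25) was 353 with DESeq2, 120 with no filter on low counts, 2 in stricter cells, 8 with no batch term, 109 in the 6 frozen DSS libraries and 14 with the Car4 type left out. For crypt cells (0) it was 293, 958 with no filter, 27 in the 6 frozen libraries and 17 in Crypt-2 alone. For surface colonocytes (91) it was 336, 432 with no filter, 42 in stricter cells, 16 with no batch term, 50 in the frozen libraries and 25 in Car4 alone. For blood endothelium (46) it was 107, 411 with no filter, 96 in stricter cells, 17 with no batch term and 86 in the frozen libraries. For the slope difference (6) it was 24, 184 with no filter, 12 in stricter cells, 3 with mitochondrial genes left out, and 0 with no batch term and in the frozen libraries.

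Members called were 1 in columnar cells, 4 in crypt cells, 3 in blood endothelium and 1 for the slope difference with no filter. The counts over all genes with no filter, given above, also rose in each of these. In blood endothelium 1 was called with DESeq2 size factors, in stricter cells or without mitochondrial genes. For batch C, 2 were called with DESeq2 and 2 with no filter, against 1 in the main fit, which called 10.4% of 10914 genes.

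Slopes changed sign for columnar Cldn23 (0.068 with no batch term, 0.090 in the frozen libraries) and Cldn7 (0.036 there). In the frozen libraries they also did for crypt Cldn7 (0.064) and Ocln (0.047), colonocyte Cldn7 (0.070) and the slope difference of Cldn8 (0.022). In Car4/Ly6g alone Cldn23 was -0.19 and Ocln -0.015, and in Car4 alone Cldn7 was 0.015, Cldn8 0.094 and Ocln -0.024. Endothelial Tjp1 was -0.078 with no batch term, and without mitochondrial genes the slope differences of Cldn3 and Cldn23 were -0.024 and -0.00061. None of these slopes was called.

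Leaving out 1 DSS library at a time, genes called ranged over 1 to 179 in columnar cells, 0 to 126 in crypt cells, 7 to 231 in colonocytes, 39 to 78 in blood endothelium, 324 to 3976 for batch C and 0 to 36 for the slope difference. Members called were 0 to 0 in columnar, crypt and colonocyte trends and the slope difference, 0 to 1 in blood endothelium and 0 to 5 for batch C. Columnar slopes ranged over -0.23 to 0.21 for Cldn23, -0.039 to 0.29 for Cldn3, -0.31 to 0.029 for Cldn7 and -0.28 to 0.067 for Ocln. Crypt slopes ranged over -0.19 to 0.25 for Cldn23, -0.058 to 0.44 for Cldn4, -0.29 to 0.023 for Cldn7 and -0.16 to 0.025 for Ocln. Colonocyte slopes ranged over -0.080 to 0.21 for Cldn23, -0.16 to 0.040 for Cldn7, -0.76 to 0.27 for Cldn8 and -0.022 to 0.12 for Ocln. Batch C terms ranged over -0.14 to 1.20 for Cldn2, -0.23 to 0.32 for Cldn3, -0.47 to 0.064 for Cldn7, -0.33 to 0.27 for Ocln and -0.29 to 0.41 for Tjp1. Slope differences ranged over -4.91 to 0.0063 for Cldn2, -0.25 to 0.17 for Cldn23 and -0.093 to 0.12 for Cldn3.

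Of members, 0 had every DSS library above the uninjured one in columnar cells without mitochondrial genes, with TMM-scaled CPM, in stricter cells or as a mean over cells, and 5 in the frozen libraries. There were 2 below it in columnar cells without mitochondrial genes, in stricter cells and in the frozen libraries, and 2 in blood endothelium without mitochondrial genes and in the frozen libraries. Cldn2 in Crypt-1 was 122 CPM with all cells summed. Without mitochondrial genes the highest type means were 1542 CPM for Cldn3, 3109 for Cldn7, 368 for Cldn23, 1363 for Cldn5 and 142 for Ocln. Unthinned and at 500 UMIs, the shares of cells were 72.2 and 5.39% for Cldn2 in Crypt-1, 38.5 and 9.69% for Cldn4 in Car4/Ly6g, 47.6 and 3.88% for Cldn8 in Crypt-2 and 88.1 and 39.7% for Cldn5 in lymphatic cells.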

Other observations

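Across 25 cell types, the genes whose mean levels ran most like a member's were listed by Pearson's r of log2(CPM + 1), as a description in which the types share libraries and depth. For Cldn2 these were Cbs (0.96), Cdo1 (0.96) and Foxa2 (0.94). For Cldn15 they were Kcne3 (0.85), a potassium channel subunit, Ufsp1 (0.82) and Mcf2l (0.81). For Cldn4 they were Lnx1 (0.97), Gpa33 (0.96) and B3galt5 (0.96), and for Cldn8 2610528A11Rik (0.96), S100a14 (0.96) and Lypd8 (0.95). For Cldn23 they were Mep1b (0.95), Apol7a (0.94) and Duoxa2 (0.93), and for Cldn5 Ephb1 (0.98), Wscd1 (0.98) and Fam57b (0.97).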
